A study of Mus musculus with 4 samples.

Results

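The LGI secreted proteins and the ADAM receptors that bind them were examined in the cerebral cortex of mice labelled as Ndrg2 knockouts and of wild-type mice. The 7 genes, the ligands Lgi1, Lgi2, Lgi3 and Lgi4 and the receptors Adam11, Adam22 and Adam23, were found by matching the transcript accession of each array probe to a mouse gene table. They were represented by 11 of 39429 probes and made up 7 of 20832 genes with a symbol. All 11 probes were well above background on every array in the red or the green dye channel, the filter for keeping a probe. The family was chosen by the large log2 ratio of Lgi3 on these same arrays, and the other members by kinship or binding, so the ratios of its members are given as descriptions with no p-value. The calls counted below come from the same contrast.

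Animals labelled Ndrg2-/- and wild-type animals were adult males of the C57BL/6N background, 3 months old. Each of 4 dual-colour Agilent arrays carried 1 cortical RNA sample labelled knockout, dyed with Cy5, and 1 wild-type sample, dyed with Cy3. No array had the dyes exchanged, so a dye difference specific to a probe and the genotype difference cannot be told apart. The deleted part of Ndrg2 is not given in the labels, nor whether samples were single animals or pools, so the spread given is that between these samples and may in part be technical. Log2 ratios are those of the sample labelled knockout over the wild-type sample on the same array.

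The targeted gene was not lower in the samples labelled knockout. The Ndrg2 probe read 0.11, 0.37, 0.40 and 0.38 as log2 ratio on the 4 arrays, a mean of 0.32 ± 0.14 (SD, n = 4), and a probe outside the deleted part would check nothing. The direction of each ratio therefore rests on the labels. Spots had a median signal of 283 to 335.5 in red and of 94 to 122 in green, depending on the array, and precision is limited by having 4 arrays. All 9 cortical neuron markers used, among them Slc17a7 and Tbr1, passed the same background filter. Per the file headers all 4 arrays shared 1 slide, so no slide effect could be compared.

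LGI proteins are secreted neuronal and glial proteins built of leucine-rich repeats and a beta-propeller of EPTP repeats. They bind ADAM11, ADAM22 and ADAM23, members of the disintegrin and metalloprotease family that lack protease activity and act as anchors in the membrane. At synapses LGI1 bridges ADAM22 and ADAM23, and ADAM22 holds the scaffold PSD-95, with effects on AMPA receptors and on Kv1 potassium channels. Loss of LGI1 causes epilepsy in mice and humans.

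Only 1 of the 7 genes, Lgi3, stood far from equal levels in the cortex. It was about 1.94 times as high in the samples labelled knockout. Lgi2 and its fellow member Adam23, a receptor, were modestly lower, by 1.19 and 1.17 fold. Lgi1, Lgi4, Adam11 and the brighter Adam22 probe lay within 1.06 fold of equal levels. With each gene represented by its brightest probe, 3 of 7 member genes were called at an adjusted p of 0.05 (limma, Benjamini-Hochberg), 1 higher and 2 lower, against 15.0% of 15759 genes tested, 9.12% higher and 5.84% lower. By probe, 3 of 11 were called, 1 higher and 2 lower, against 12.9% of 27664 probes, 7.41% higher and 5.54% lower. Since the family was proposed from this contrast, nothing is read from these counts. The median log2 ratio of the 7 genes was 0.02, and that of all genes tested was 0.01. The median size of the ratio, in either direction, was 0.09 for the members and 0.08 for all genes. In bulk tissue, a change in the number of cells of a type and a change in RNA per cell cannot be told apart.

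**Figure D1:**
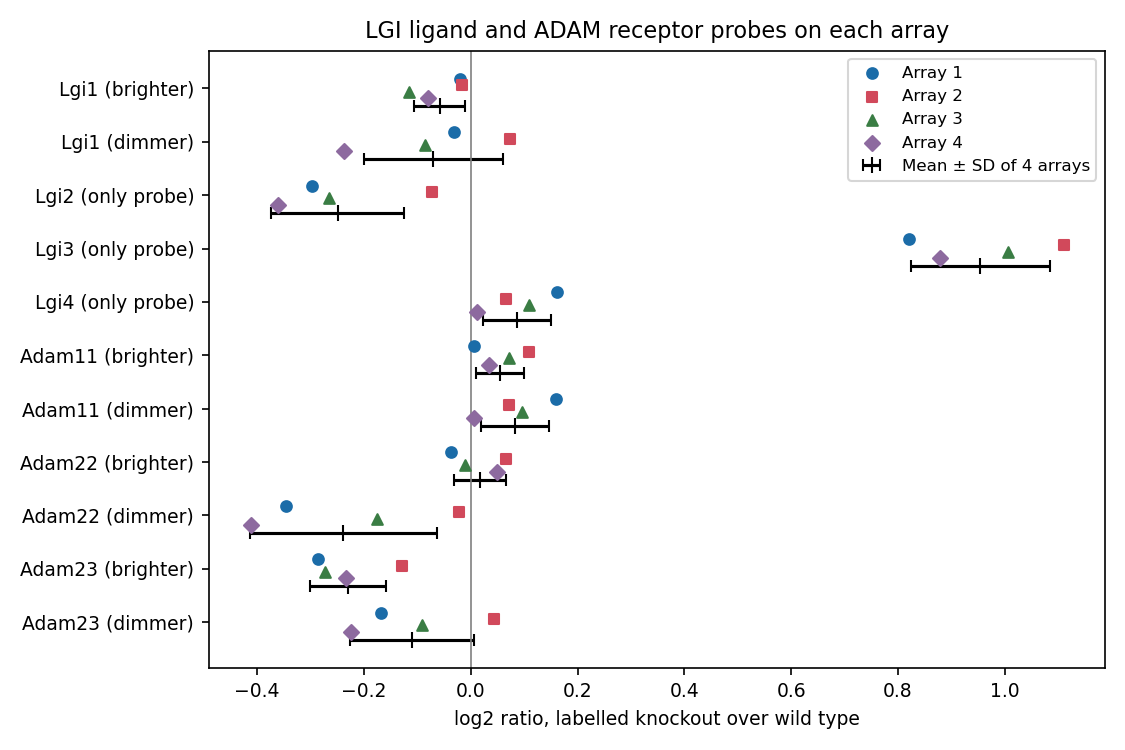
Log2 ratio (x axis) of each of the 11 LGI and ADAM probes (rows) on arrays 1 to 4, with the mean and SD of the 4 arrays as a bar. The 4 values of Lgi3 lie between 0.82 and 1.11, while no other probe passes 0.16 upward or -0.41 downward.

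Among the ligands, Lgi3 encodes a secreted protein of neurons and oligodendrocytes that takes part in organising potassium channels along myelinated axons in mice. Its normalized log2 level was 12.12, 12.23, 12.13 and 12.01 in the samples labelled knockout on arrays 1 to 4, against 11.30, 11.12, 11.12 and 11.13 in the wild-type samples. The samples labelled knockout were all high and the wild-type samples all low, with a gap of 0.70 between the nearest pair. The log2 ratio was 0.82, 1.11, 1.01 and 0.88, a mean of 0.95 ± 0.13 (SD, n = 4). Lgi3 was the only member past 1.5 fold on all 4 arrays, which 15 of 15759 genes were (0.0952%). Counting Lgi3 itself, 7 genes tested had a mean ratio of at least its size, or 0.0444%. Its only probe matched NM_145219, so no other probe could check the value.

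The wild-type sample on array 1 had the highest Lgi3 level of its group and array 1 the smallest ratio. The 3 other wild-type samples lay within 0.01 of each other. Without each array in turn the mean ratio stayed between 0.902 and 0.999, and Lgi3 was called each time. Lgi3 was chosen for its ratio on these same arrays, so these calls are no independent support.

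**Figure D2:**
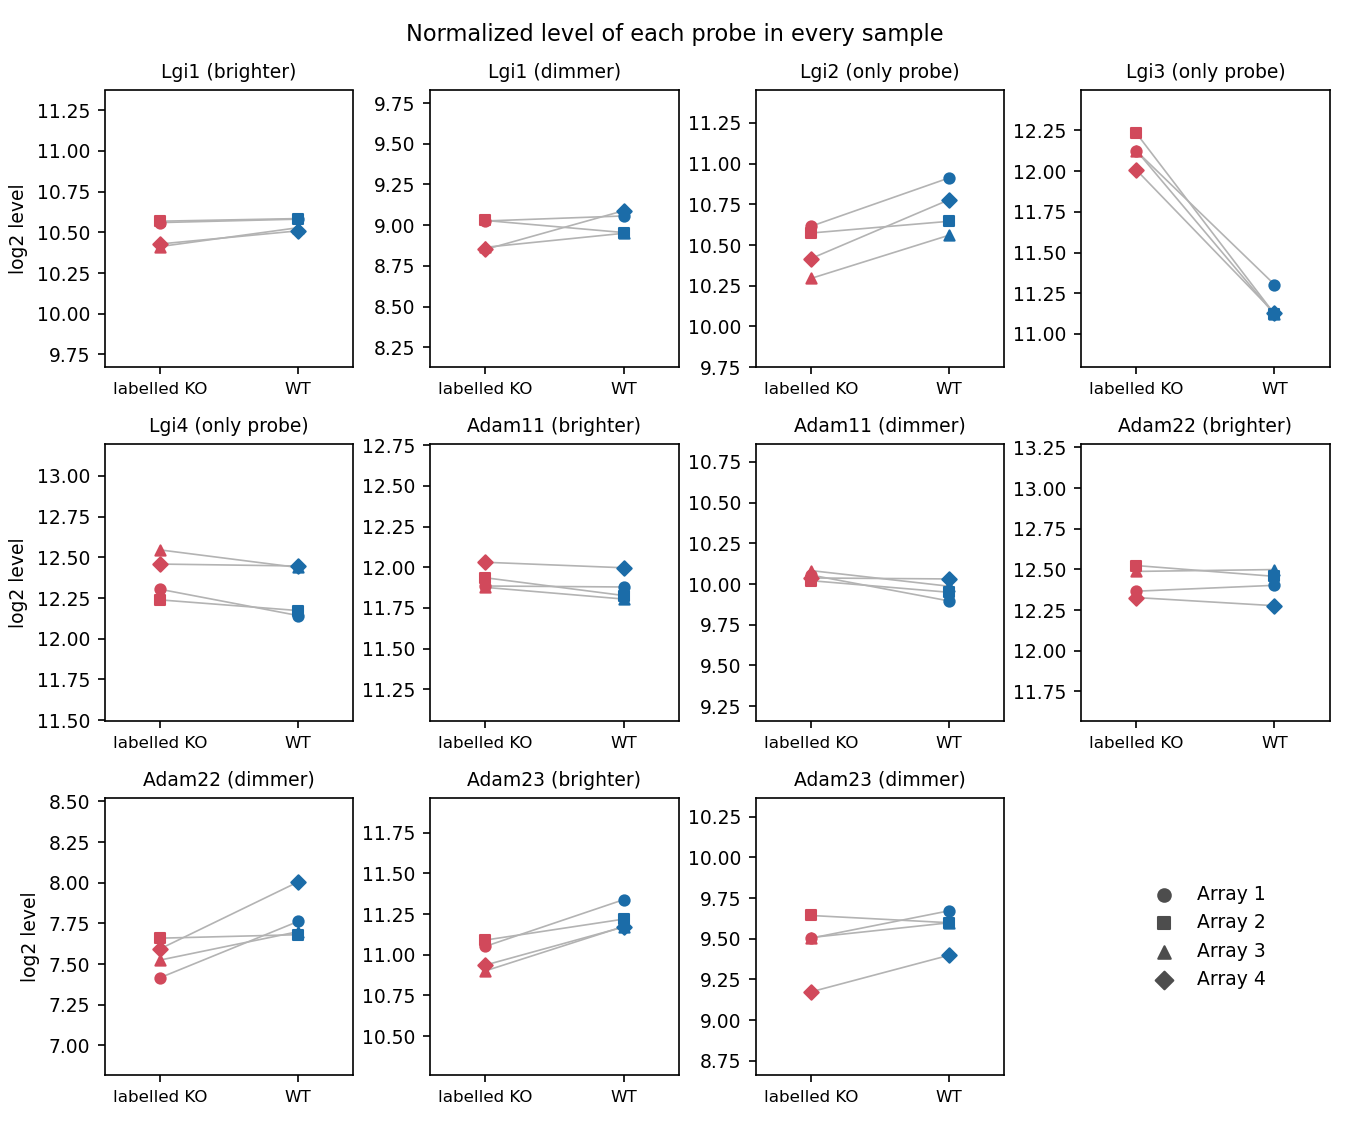
Normalized log2 level (y axis, a window of equal height in each panel) of every probe in the 4 samples labelled knockout (left) and the 4 wild-type samples (right), with lines joining the samples of 1 array. Lgi3 alone shows a wide gap between the groups, and the dimmer Adam22 probe and the brighter Adam23 probe show narrow ones.

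Lgi2 encodes a ligand expressed by neurons, and a truncating mutation of it causes a juvenile epilepsy in dogs. Its level was 10.61, 10.57, 10.29 and 10.42 in the samples labelled knockout on arrays 1 to 4, against 10.91, 10.65, 10.56 and 10.78 in the wild-type samples. The groups overlapped, since the samples labelled knockout of arrays 1 and 2 lay above the wild-type sample of array 3. Within every array the sample labelled knockout was lower, with log2 ratios of -0.30, -0.07, -0.27 and -0.36 and a mean of -0.25 ± 0.12 (SD, n = 4). Array 2 stood nearest to 0. Lgi2 was called lower, and the call was lost without array 1 (-0.23), array 3 (-0.24) or array 4 (-0.21), though it held without array 2 (-0.31).

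Lgi1, the ligand mutated in human lateral temporal epilepsy and bound by autoantibodies in limbic encephalitis, differed little. Its brighter probe had levels of 10.56, 10.57, 10.41 and 10.43 in the samples labelled knockout, against 10.58, 10.58, 10.53 and 10.51 in the wild-type samples, and the groups overlapped. The log2 ratios were -0.02, -0.02, -0.12 and -0.08, a mean of -0.06 ± 0.05 (SD, n = 4). The dimmer Lgi1 probe had a mean of -0.07 ± 0.13, with array 2 above 0 at 0.07. The probes differed by 0.01 ± 0.11 over the 4 arrays, less than the spread between arrays.

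The sequences upstream of Lgi2 and Lgi1 are shown because these ligands differed in their calls and both had an entry in the RefSeq promoter table, build GRCm38.p6, with no base of the gene as that assembly bounds it in the window. Capitals mark GGGCGG and CCAAT read on either strand, where overlapping copies run together. Each is 250 bases, 5′ to 3′, and ends at the base before the gene's start. Lgi2 lies on the minus strand at chr5:52566307-52566556 and Lgi1 on the plus strand at chr19:38264437-38264686.
Lgi2: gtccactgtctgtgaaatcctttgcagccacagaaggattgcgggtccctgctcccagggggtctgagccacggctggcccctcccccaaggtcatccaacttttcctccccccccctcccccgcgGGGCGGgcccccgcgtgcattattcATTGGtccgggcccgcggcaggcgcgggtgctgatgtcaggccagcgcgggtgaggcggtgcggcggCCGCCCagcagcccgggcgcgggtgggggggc
Lgi1: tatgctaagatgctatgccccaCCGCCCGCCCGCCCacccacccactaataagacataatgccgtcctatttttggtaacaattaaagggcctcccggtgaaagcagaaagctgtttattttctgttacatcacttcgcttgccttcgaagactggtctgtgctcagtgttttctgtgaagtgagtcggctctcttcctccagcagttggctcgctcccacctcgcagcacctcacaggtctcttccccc

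The Lgi2 window was richer in G and C, at 72.4%, and held 21 CG dinucleotides, against 52.4% and 10 in the Lgi1 window. Over all 32851 windows of this length the medians were 52.4% and 6. GGGCGG, the letters of the GC box, occurred 2 times in Lgi2 and 3 times in Lgi1, and at least once in 32.7% of all windows. CCAAT occurred 1 time in Lgi2 and not in Lgi1, and was in 33.8% of all windows. TATAAA (12.4% of windows), CACGTG (6.02%) and TGACGTCA (1.55%) were in neither. The windows of Adam22 and Adam23, with 66.8% and 70.4% of G and C, held none of the 5 motifs on either strand. A match describes the letters and shows no binding.

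Lgi4, which Schwann cells secrete to drive myelination of peripheral nerves in mice, had 1 probe. Its level was 12.30, 12.24, 12.55 and 12.46 in the samples labelled knockout, against 12.14, 12.17, 12.44 and 12.45 in the wild-type samples. The level followed the array more than the genotype: arrays 3 and 4 were high and arrays 1 and 2 low in both groups, which overlapped. The log2 ratios were 0.16, 0.07, 0.11 and 0.01, all above 0, with a mean of 0.09 ± 0.06 (SD, n = 4), and Lgi4 was not called.

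Among the receptors, Adam23, which binds LGI1 from the presynaptic side, was called lower by its brighter probe. The level was 11.05, 11.09, 10.90 and 10.94 in the samples labelled knockout, against 11.34, 11.22, 11.17 and 11.17 in the wild-type samples. The groups did not overlap, and the nearest samples lay 0.08 apart. The log2 ratios were -0.29, -0.13, -0.27 and -0.23, a mean of -0.23 ± 0.07 (SD, n = 4). The call was lost without array 1 (-0.21), array 2 (-0.26) or array 3 (-0.22).

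The dimmer Adam23 probe, matched to the same transcript NM_011780, was not called. Its ratios were -0.17, 0.04, -0.09 and -0.23, a mean of -0.11 ± 0.12, with array 2 above 0 and the groups overlapping. The brighter probe read lower than the dimmer one on each array, by -0.12 ± 0.08 (SD, n = 4).

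Adam22, the postsynaptic and axonal receptor of LGI1, differed between its probes, which match different transcripts of the gene. The brighter probe (NM_001098225) had levels of 12.37, 12.52, 12.49 and 12.33 in the samples labelled knockout, against 12.40, 12.46, 12.50 and 12.28 in the wild-type samples. The groups overlapped, and 2 arrays were above and 2 below 0, with a mean log2 ratio of 0.02 ± 0.05 (SD, n = 4). The dimmer probe (NM_001007220) had levels of 7.42, 7.66, 7.52 and 7.59 in the samples labelled knockout, against 7.76, 7.68, 7.70 and 8.005 in the wild-type samples. Its groups did not overlap, but by a gap of only 0.02.

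The log2 ratios of the dimmer Adam22 probe were -0.35, -0.02, -0.17 and -0.41, a mean of -0.24 ± 0.18 (SD, n = 4), and it was not called. The brighter probe read above it on all 4 arrays, by 0.26 ± 0.17. Levels did not overlap between the genotypes for 3 of the 11 member probes (Lgi3, the brighter Adam23 and the dimmer Adam22 probe), against 13.5% of all probes tested.

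Adam11, which in mice places Kv1 channels at basket cell terminals of the cerebellum, gave slightly positive ratios on both probes. Its brighter probe (NM_001110778) had levels of 11.88, 11.94, 11.88 and 12.03 in the samples labelled knockout, against 11.88, 11.83, 11.80 and 12.00 in the wild-type samples, which overlapped. The mean log2 ratio was 0.06 ± 0.04 for that probe and 0.08 ± 0.06 for the dimmer one (NM_009613), with all 4 arrays above 0 for each (SD, n = 4). Neither was called, and the probes differed by -0.03 ± 0.09.

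Array 2 gave the highest ratio for the Lgi2 probe, both Lgi1 probes, both Adam22 probes and both Adam23 probes, as well as for Lgi3 and the brighter Adam11 probe. For Lgi4 and the dimmer Adam11 probe the highest ratio was on array 1. The probes share the arrays, so these are not independent sightings.

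Lgi3 lies on chromosome 14, as Ndrg2 does, 183 places from it in the order of the 543 genes of that chromosome tested. The other members lie on chromosomes 1, 5, 7, 11 and 19. Of the 5 tested genes on either side of Lgi3, 3 rose and 3 fell in the samples labelled knockout (limma, adjusted p under 0.05), and 4 did not pass, against 15.0% of all genes called. Sftpc, the gene of a lung surfactant protein, next to Lgi3 on one side, fell with log2 ratios of -0.59, -0.30, -0.57 and -0.52 (mean -0.50 ± 0.13, limma adjusted p 0.00355). Sftpc had 1 kept probe, and the size of its ratio depended on the background handling. It was -0.57 without background subtraction, -0.66 with an offset of 10 and -0.84 with the processed signals. Reep4, which shapes the endoplasmic reticulum and lies next to Lgi3 on the other side, was at 0.05 ± 0.14 and did not pass.

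Dmtn, an actin-bundling gene at the fifth place, fell, and the size of its mean ratio in the main fit was slightly above that of Lgi3. Its ratios were -0.96, -0.96, -0.99 and -0.97 (mean -0.97 ± 0.02, limma adjusted p 7.43e-05), from 1 kept probe. With median centring in place of loess, Dmtn was at -0.56 and Lgi3 at 1.33, so that order depended on the processing. The corepressor gene Hr was at 0.39 ± 0.13, the RNA polymerase III subunit gene Polr3d at 0.35 ± 0.03 and Fam160b2 at 0.34 ± 0.03, and these 3 rose. The procollagen protease gene Bmp1 fell (-0.19 ± 0.04), but the mean of its 3 probes was 0.01 and did not pass, nor did it pass without any 1 array (ratios between -0.20 and -0.17). The other 5 called neighbours passed without each array in turn. Among those that did not pass, Slc39a14 was at -0.01, Phyhip at 0.04 and Nudt18 at 0.05.

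**Figure D3:**
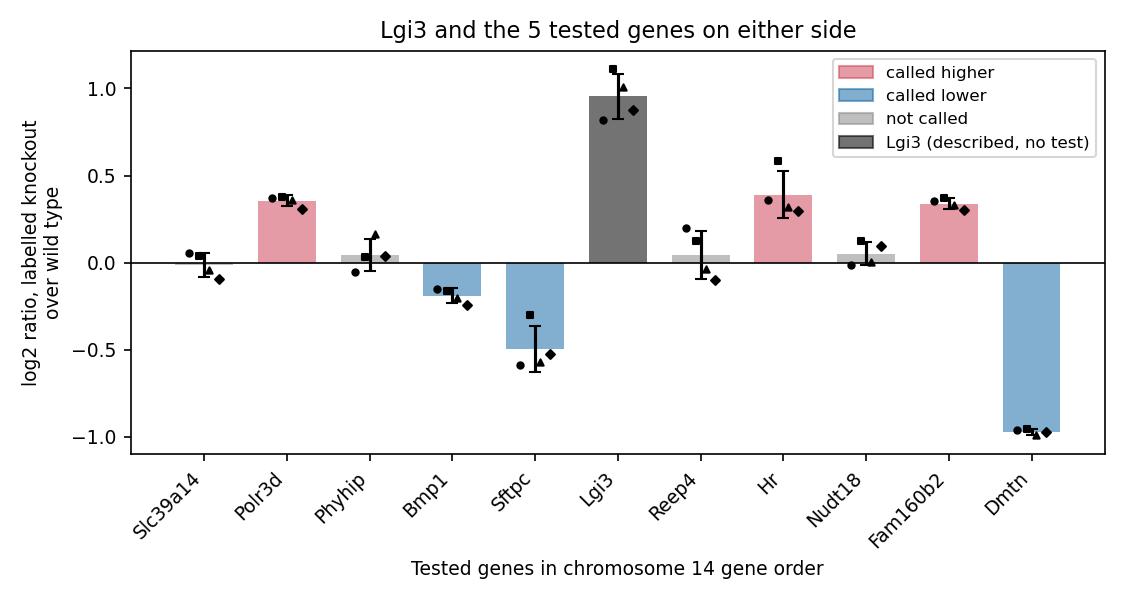
Mean log2 ratio with SD (bars) and the 4 array values (points) for Lgi3 and the 5 tested genes on either side, in chromosome 14 gene order. Genes called higher and genes called lower stand on both sides of Lgi3, from Hr at 0.39 to Dmtn at -0.97.

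The genes whose 4 array ratios lay nearest to those of Lgi3, by the root mean square difference over the arrays, were Slc10a1 (0.213), Mbp (0.267), Supt16 (0.276), Kctd14 (0.282) and Rgcc (0.282). Supt16 and Rgcc are also on chromosome 14, while Slc10a1 lies on 12, Mbp on 18 and Kctd14 on 7. Their mean log2 ratios in the main fit ran from 0.70 for Kctd14 to 0.77 for Mbp, so each stood below Lgi3 there. The other probes of Mbp had a median of 0.18 and those of Kctd14 a median of 0.16. The order depended on the processing. With the processed signals Supt16 (1.026) stood above Lgi3 (0.991), Slc10a1 was at 0.55, and Slc10a1, Mbp, Kctd14 and Rgcc stayed below Lgi3. With median centring in place of loess, Slc10a1 (1.468) and Kctd14 stood above Lgi3 (1.334), and Mbp, Supt16 and Rgcc below it. The root mean square differences given are those of the main ratios. This measure describes likeness of ratio only.

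Markers of cortical cell types and of the meninges are given for comparison. Oligodendrocyte markers, all 8 of which passed the background filter, had array medians of 0.08, 0.11, -0.17 and 0.13, with Mbp higher, Ermn lower and 6 not called. The probe that represents Ermn was at -0.29 ± 0.07 and its other probe at 0.18. Their summed linear level ran from 137000 to 143000 in the samples labelled knockout and from 137000 to 174000 in the wild-type samples. Of the 9 cortical neuron markers 4 rose and 5 did not pass, and the median ratio was 0.16. Of those that rose, Rorb was at 0.25 and its other probe at 0.03, and Rbfox3 was at 0.16 and its other probes at a median of 0.02. Neurod6 and Snap25, which also rose, had 1 probe each. Syt1 was below 0 on all 4 arrays (-0.18 ± 0.10) and did not pass. The summed level of the 9 neuron markers ran from 210000 to 230000 in the samples labelled knockout and from 204000 to 218000 in the wild-type samples. Of the 8 astrocyte markers Aldoc rose (0.24 ± 0.02, limma adjusted p 0.0113) and 7 did not pass, 6 were higher at an unadjusted p under 0.05, and the list median was 0.17, with array medians of 0.17, 0.13, 0.16 and 0.15. The share of all genes at that unadjusted threshold was not computed, so nothing is read from the unadjusted count. The summed level of the astrocyte markers ran from 202000 to 215000 in the samples labelled knockout and from 177000 to 189000 in the wild-type samples. These ranges did not overlap, but that was not particular to astrocytes. Summed ranges also lay apart for the node genes listed below (72100 to 76100 against 76900 to 81600). The same held for the other ADAM genes (29500 to 31100 against 28200 to 29200). All 8 meningeal markers rose, with a median of 0.50 and array medians of 0.58, 0.44, 0.26 and 0.68, and a summed level of 10100 to 17000 in the samples labelled knockout and 7100 to 13300 in the wild-type samples. Their part in the members' ratios was not tested.

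The genes that LGI and ADAM proteins are known to work with were set beside them in 8 lists of 62 genes. Of the 60 tested, 14 were called (limma, adjusted p under 0.05), 7 higher and 7 lower, or 23.3% against 15.0% of all genes, and their median ratio was 0.04. The count was 3 without array 1, 1 without array 2, 4 without array 3 and 12 without array 4. Over all genes 2357 were called, and 646, 452, 804 and 1544 without arrays 1 to 4 in turn. Only the potassium channel gene Kcna4 passed without each array in turn.

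**Figure D4:**
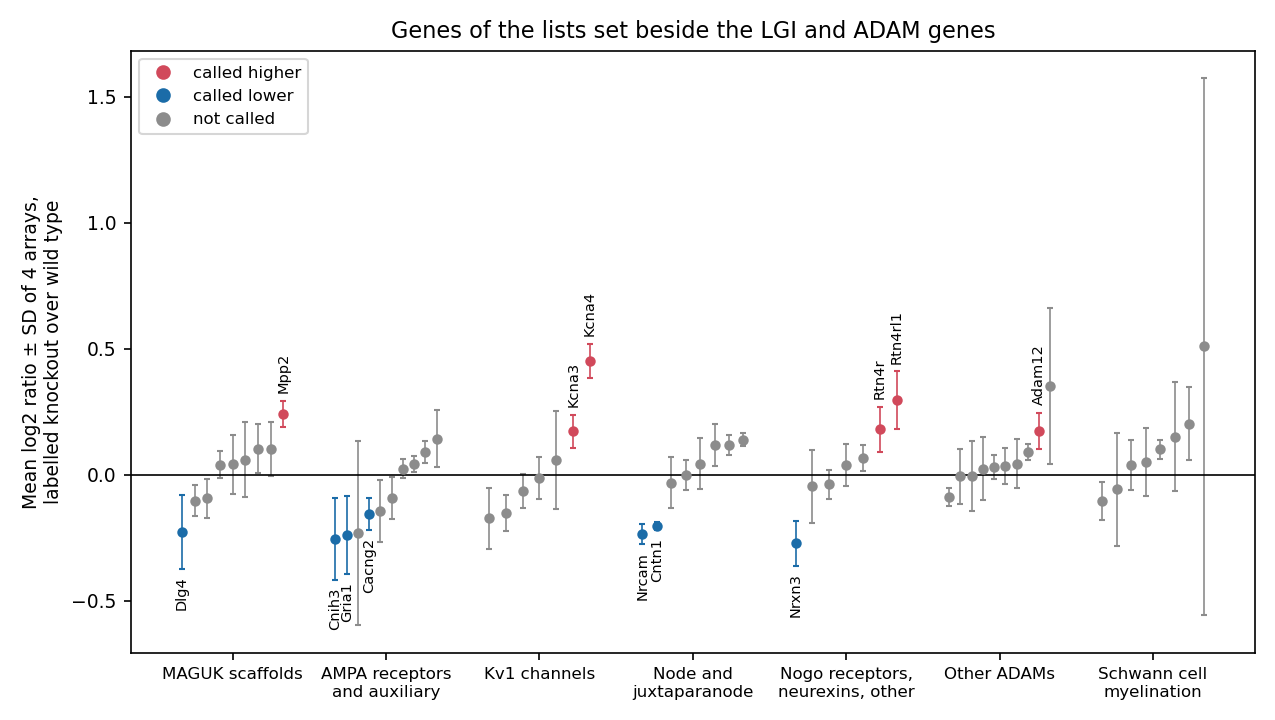
Mean log2 ratio with SD over the 4 arrays (y axis) for the tested genes of 7 lists, coloured by call, with called genes named. Among the called genes Kcna4 is highest at 0.45 and Nrxn3 lowest at -0.27, and the list with Adgrv1 as its only tested gene is left out.

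Among the AMPA receptor subunits and their auxiliary proteins, 3 of 10 fell and 7 did not pass, with a list median of -0.12. They were the cornichon gene Cnih3 (-0.25 ± 0.16, limma adjusted p 0.0404), the subunit gene Gria1 (-0.24 ± 0.16, limma adjusted p 0.0441) and Cacng2 (-0.16 ± 0.06, limma adjusted p 0.0491), which encodes stargazin. The ratios of Gria1 were -0.32, -0.41, -0.17 and -0.06 on arrays 1 to 4, so that arrays 1 and 2 were the lowest. Each of these 3 calls was lost without array 1, without array 2 and without array 3, and those of Cnih3 and Cacng2 also without array 4.

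Of the 9 MAGUK scaffolds and their partners, the membrane palmitoylated protein gene Mpp2 rose (0.24 ± 0.05, limma adjusted p 0.0136) and Dlg4, which encodes the ADAM22 partner PSD-95, fell (-0.23 ± 0.15, limma adjusted p 0.0450). The Dlg4 ratios were -0.36, -0.33, -0.18 and -0.04, all below 0 and closest to it on array 4. The other 7, among them Dlg1, Dlg2 and Dlg3, did not pass.

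Of 7 Kv1 channel genes, Kcna4 and Kcna3 rose and 5 did not pass. Kcna4, which encodes a rapidly inactivating subunit, had ratios of 0.52, 0.37, 0.43 and 0.49, a mean of 0.45 ± 0.07 (limma adjusted p 0.00155). Kcna3 was at 0.17 ± 0.07 (limma adjusted p 0.0384). Kcna1 and Kcna2, the main axonal subunits, were at -0.06 ± 0.07 and 0.06 ± 0.19 and did not pass.

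At the node and the regions beside it, the adhesion genes Nrcam (-0.24 ± 0.04, limma adjusted p 0.0132) and Cntn1 (-0.21 ± 0.02, limma adjusted p 0.0173) fell, and 6 of 8 genes did not pass. Among these 6 were Cntnap2 (0.04 ± 0.10) and Cntn2 (-0.0022 ± 0.06), which anchor Kv1 channels beside the paranode. The other probe of Cntn2 was at 0.22, and the other probes of Cntnap2 had a median of -0.03. Among Nogo receptors, neurexins and other genes reported to bind LGI or ADAM proteins or to act beside them, the Nogo receptor genes Rtn4rl1 (0.30 ± 0.11) and Rtn4r (0.18 ± 0.09) rose, the neurexin gene Nrxn3 (-0.27 ± 0.09) fell, and 4 of 7 did not pass. The other probes of Nrxn3 had a median of -0.03, and the mean over the 6 probes of Nrxn3 did not pass (-0.04, limma adjusted p 0.493).

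Of the other ADAM genes, most of them active proteases, 10 were tested. Adam12 rose (0.17 ± 0.07, limma adjusted p 0.0393) and 9 did not pass, and at an unadjusted p under 0.05 there were 3 higher and 1 lower. Adam8, with ratios of 0.77, 0.40, 0.11 and 0.13 (mean 0.35 ± 0.31, limma adjusted p 0.0664), was positive on all 4 arrays and had the highest mean of the 10; it is named after its values were seen. The sheddase genes Adam10 (0.03 ± 0.07) and Adam17 (0.03 ± 0.05) were also among those not called. The EPTP-repeat relative Adgrv1 rose (0.29 ± 0.13, limma adjusted p 0.0198). Its linear level, with the added offset of 50, was 175 to 197 in the samples labelled knockout and 139 to 164 in the wild-type samples. Its ratio was 0.42 with the scanner's processed signals, and the call was lost without array 2, array 3 or array 4. None of 8 Schwann cell myelination genes passed in limma, among them Sox10 (0.20 ± 0.14), and at an unadjusted p under 0.05 there were 2 higher and 1 lower. Nothing is read from the unadjusted counts of the ADAM and Schwann cell lists, since the share of all genes at that threshold was not computed. Egr2, which also responds to neuronal activity, ranged from -0.71 to 1.78 between arrays (mean 0.51 ± 1.07).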

How the data were processed

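Cortical RNA (200 ng, per the labels' protocols) was measured on 4 dual-colour arrays. Per the file headers, images were extracted by the authors in Agilent Feature Extraction 11.0.1.1 (10.7.3.1 per the submitters' processing notes). The deposited intensity is the median pixel signal of a spot, with local background, and a processed intensity after background subtraction and dye normalization. Per the file headers, a log10 ratio of red over green is given for each spot, and the authors' deposited log2 values equal it after a change of base, so positive values are higher in red.

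Ratios were computed in limma 3.58.1 (R 4.3.3) by normexp with offset 50, then loess within arrays with 1377 control spots at weight 0. The remaining 43020 spots of an array were used except 802 marked as outliers (sum of the 4 arrays), and none was saturated; no member lost a value. A probe was kept if either channel was well above background on every array (27664 of 39429). Levels are log2 channel values after Aquantile scaling of the average intensity between arrays. They are compared only within a probe, except in the summed levels of lists. Those sums add linear levels over unlike probes, each with the offset of 50, so the brightest probes weigh most. Symbols came from RefSeq accessions (GRCm38.p6); 27427 probes matched. The array annotation uses mm9, so gene coordinates are not printed and the table served for gene order.

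An intercept-only limma fit over the 4 ratios (lmFit, eBayes) covered all kept probes, with Benjamini-Hochberg adjustment over them and a threshold of 0.05; genes were represented by their brightest probe (15759 genes). The ratio within an array pairs the samples of a replicate number, so the block is part of the design. The fit was run on simulated ratios with independent noise and planted changes, as a check of the code. The simulation held no dye or array effect, so it does not vouch for the calls given here. Members and lists were chosen with earlier results of these data known. Named genes were all members, up to 4 called genes by size in each list (or 2 where none was called), the 5 tested genes on either side of Lgi3, the 5 most like it and Ndrg2; of the marker lists, those shown beside a member. Some listed genes are not reported here. The alternatives are given in the closing section.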

Additional observations from a re-analysis of the deposited data

Results flagged for a closer look

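In 2 of 64 groups of 4 values checked, 1 value stood apart from the other 3 by more than Dixon's critical value for 4; chance marks about 1 in 20 such groups. The wild-type sample of array 1 had a Lgi3 level of 11.30, above the 3 other wild-type samples, and its gap was 0.953 of the group's range. The log2 ratio of Cntn1 on array 3, -0.18, lay above the other 3, with a gap of 0.926 of the range.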

How the results depend on the processing

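The 4 arrays limit what can be called. Lgi3 was called higher under every alternative run, but it was chosen for its ratio on these same arrays, so nothing is read from this. Median centring of each array in place of loess, which left the median of all genes at 0.28, gave 0.28 for Lgi1, 0.10 for Lgi2, 1.33 for Lgi3, 0.49 for Lgi4, 0.44 for Adam11, 0.42 for Adam22 and 0.13 for Adam23, so that Lgi2 and Adam23 turned to positive values that lay below that median. Adam23 was then called higher, the opposite of its main call, and Lgi2 was not called. Dlg4 (0.16), Cnih3 (0.11), Gria1 (0.13), Cacng2 (0.24), Nrcam (0.24), Cntn1 (0.32), Nrxn3 (0.16) and Bmp1 (0.23) also turned. Of these, Cacng2, Nrcam, Cntn1, Nrxn3 and Bmp1 were called higher under median centring, and Dlg4, Cnih3 and Gria1 were not called. Only Cntn1 of these lay above that median. That setting called 6 member genes, 10 member probes, 50 partner genes and 12971 genes in all. Averaging the probes of a gene gave -0.11 for Adam22 and turned Bmp1 to 0.0072. With the channels separate and no replicate block, 1 member gene and 1 member probe (Lgi3), 3 partner genes and 671 genes were called. An offset of 10 called 7 partner genes and 1538 genes. The processed signals and the deposited log2 ratios each called 1329 genes, and Lgi2 was not called with either. They gave the same values for the members and named genes, so they count as a single check. The cause of these changes was not tested.

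Leaving out 1 array at a time gave -0.07 to -0.04 for Lgi1, -0.31 to -0.21 for Lgi2, 0.902 to 0.999 for Lgi3, 0.06 to 0.11 for Lgi4, 0.04 to 0.07 for Adam11, 0.00 to 0.03 for Adam22 and -0.26 to -0.21 for Adam23. Between 1 and 2 member genes, 1 and 2 member probes, 1 and 12 partner genes, 5 neighbours of Lgi3 in each case, and 452 and 1544 genes in all were then called. Of the 31 other named genes, 15 lost a call under at least 1 alternative. Egr2, Sox10, Slc39a14, Phyhip, Reep4 and Nudt18 are among the 31 but were not called in the main fit and had no call to lose.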
